A study of Homo sapiens with 6 samples.

Results

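MDA-MB-453 and T47D are established human breast cancer cell lines with a luminal, epithelial character, and they differ in the sex steroid receptors they use. The pair sets a line that lacks estrogen receptor alpha against a line that has it. It takes 2 of the 6 RNA-seq libraries of the series, chosen by cell line name, with 1 library for each line. MDA-MB-453 is labelled metastatic carcinoma taken from a pericardial effusion and was grown in IMEM medium with 20% fetal bovine serum. T47D is labelled ductal carcinoma taken from a pleural effusion and was kept in RPMI 1640 with the same serum at 10%. The labels give no drug or hormone treatment. Line, medium and serum cannot be told apart. The 4 other lines, UACC-812, MDA-MB-415, SKBR3 and CAL51, are used here only to place the pair's values.

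Estrogen receptor alpha, encoded by ESR1, is a ligand-activated transcription factor that binds DNA together with the pioneer factor FOXA1 and with GATA3, and in luminal breast cells it drives genes of growth and secretion, among them the progesterone receptor gene PGR. Breast tumors that keep luminal factors such as FOXA1 without ESR1 include the molecular apocrine tumors, named after the sweat-gland-like secretory genes many of them express.

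Each value is an RPKM (reads scaled to exon length and to the depth of the library) summed by the authors over the exons of a gene. The sum grows with the number of exons, so a level is compared only between lines for the same gene. Differences are MDA-MB-453 minus T47D on the log2(RPKM + 1) scale, where 2 units are a 4-fold difference, and the added 1 makes the difference of low genes look smaller than it is. With 1 library a side there is no replicate error and no test, and every count below says how many genes lay at least 4-fold apart between these 2 libraries. Recovered depth was 33900000 reads in MDA-MB-453 and 29200000 in T47D. For an exon of 150 bp, 3 reads gave 0.589 RPKM in MDA-MB-453 against 0.685 RPKM in T47D. At this depth a difference between values of that size cannot be read.

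The epithelial marker was present in both libraries, and of the markers of other cell types some were listed at 0 and some were not. EPCAM, an epithelial adhesion molecule, had 2572 RPKM in MDA-MB-453 and 1329 RPKM in T47D. VIM, the mesenchymal filament vimentin, had 20.9 RPKM in MDA-MB-453 and 28.6 RPKM in T47D, against 2810 RPKM in CAL51. The pan-leukocyte gene PTPRC had 2.43 RPKM in MDA-MB-453 and was listed at 0 in T47D, and CD3E (T cells), MS4A1 (B cells), COL3A1 (fibroblasts) and CDH5 (endothelium) were listed at 0 in both. The 19 leukocyte markers measured summed to 629 RPKM in MDA-MB-453 and 675 RPKM in T47D, and 6 of them were listed at 0 in both. The 13 stromal and endothelial markers summed to 461 RPKM in MDA-MB-453 and 499 RPKM in T47D, led by PDGFRA at 286 RPKM in MDA-MB-453 and 275 RPKM in T47D.

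Over the whole transcriptome the lines were close. Of 16418 genes, 10881 (66.3%) lay within 2-fold, and the median absolute difference of 0.64 was the smallest of the 15 pairs that the 6 lines make. Across genes, which are not independent replicates, the Spearman correlation was 0.897, second to UACC-812 with T47D at 0.898, and the Pearson correlation of 0.892 was the highest. MDA-MB-453 was at least 4-fold higher for 663 genes (4.04%) and at least 4-fold lower for 1457 genes (8.87%), together 12.9%. The median difference over all genes was -0.06. With it removed, 701 genes (4.27%) were higher in MDA-MB-453 and 1403 (8.55%) lower, together 12.8%. These shares are the background for every list below.

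**Figure D1:**
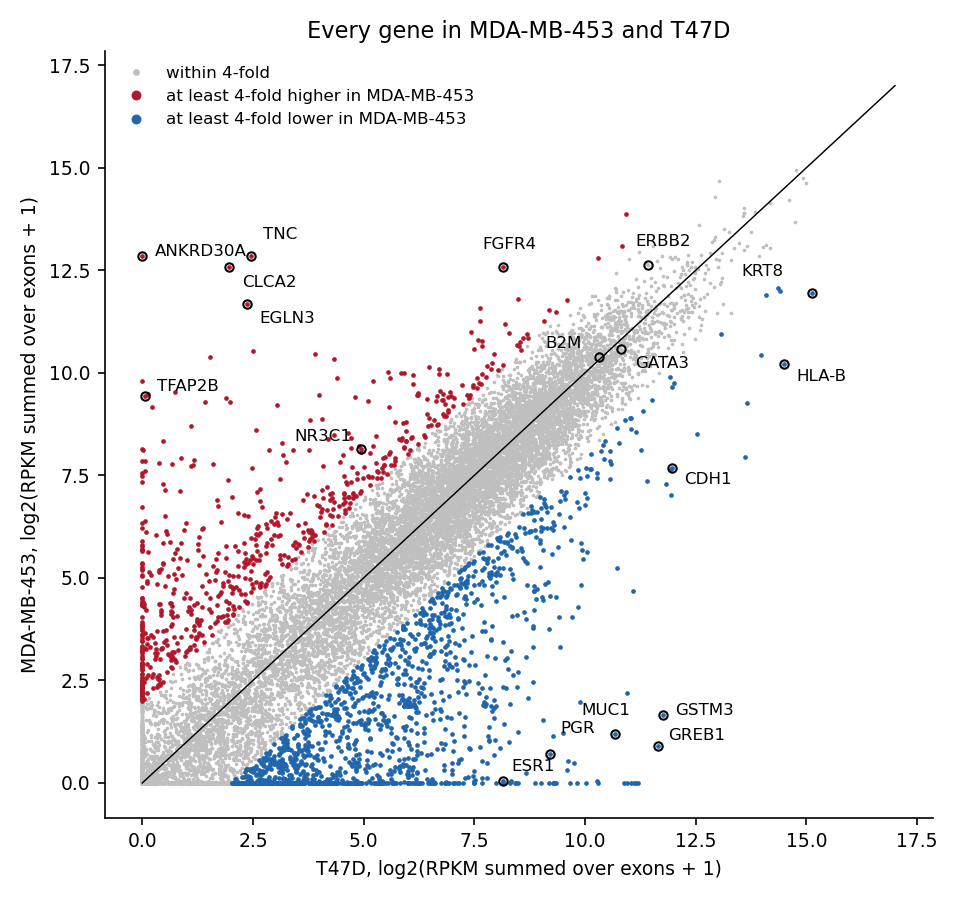
Level of each of 16418 genes in MDA-MB-453 (vertical axis) against T47D (horizontal axis), both as log2(RPKM summed over exons + 1). Points off the diagonal by at least 4-fold are red (663 genes higher in MDA-MB-453) or blue (1457 lower), and circled genes are named in the text.

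Estrogen receptor alpha and the progesterone receptor were near 0 in MDA-MB-453 and high in T47D. ESR1 had 0.026 RPKM in MDA-MB-453 and 284 RPKM in T47D, a difference of -8.12. Over the other lines it had 166 RPKM in UACC-812, 83 RPKM in MDA-MB-415 and 0.0522 RPKM in SKBR3, and it was listed at 0 in CAL51, so T47D stood highest of the 6 and MDA-MB-453 among the 3 lines near 0. PGR, the progesterone receptor, had 0.639 RPKM in MDA-MB-453 and 586 RPKM in T47D, a difference of -8.49, and reached 108 RPKM in UACC-812 as the next highest. T47D was the highest of the 6 lines for both genes.

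The glucocorticoid receptor ran the other way. NR3C1, which encodes it, had 281 RPKM in MDA-MB-453 and 29.5 RPKM in T47D, a difference of 3.21, and MDA-MB-453 was the highest of the 6 lines. ESR2, estrogen receptor beta, had 0.861 RPKM in MDA-MB-453 and 3.06 RPKM in T47D, and the mineralocorticoid receptor gene NR3C2 had 2.78 RPKM in MDA-MB-453 and 7.31 RPKM in T47D, both low and within 4-fold.

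Some of the factors that define luminal cells had similar levels in both lines. GATA3 had 1533 RPKM in MDA-MB-453 and 1796 RPKM in T47D. FOXA1 had 294 RPKM in MDA-MB-453 and 191 RPKM in T47D. XBP1, a secretory pathway regulator, had 846 RPKM in MDA-MB-453 and 387 RPKM in T47D, and SPDEF, an ETS factor of secretory epithelium, had 355 RPKM in MDA-MB-453 and 243 RPKM in T47D. All 4 lay within 4-fold. The 22 receptor coregulators measured had no member 4-fold apart in either direction. Among the 25 luminal transcription factors, 4 were at least 4-fold higher in MDA-MB-453, against a background of 4.04%, and 3 lower, against 8.87%. The list median was 0.33 against -0.06 over all genes. The median absolute difference of the list was 1.08 against 0.64 over all genes, so as a whole the list was further apart than the background.

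Several of the 7 luminal factors at least 4-fold apart had wide differences. TFAP2B, an AP-2 factor, had 695 RPKM in MDA-MB-453 and 0.0378 RPKM in T47D, a difference of 9.39, with 168 RPKM in MDA-MB-415 as the only other value above 1. CREB3L1, TBX3 and KLF5 were also higher in MDA-MB-453, with differences of 3.41, 2.70 and 2.32. ELF5, the ETS factor of milk-secreting alveolar cells, had 1.36 RPKM in MDA-MB-453 and 358 RPKM in T47D, a difference of -7.25. AFF3, a nuclear protein of the elongation machinery, had 5.87 RPKM in MDA-MB-453 and 304 RPKM in T47D. TBX2 was listed at 0 in MDA-MB-453 and had 10.1 RPKM in T47D. Among 26 other nuclear receptors, NR2F1 (COUP-TFI) stood out with 228 RPKM in MDA-MB-453 and 8.55 RPKM in T47D, and the retinoic acid receptors RARA and RARG were lower in MDA-MB-453, with 53 and 33.6 RPKM there and 674 and 228 RPKM in T47D.

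**Figure D2:**
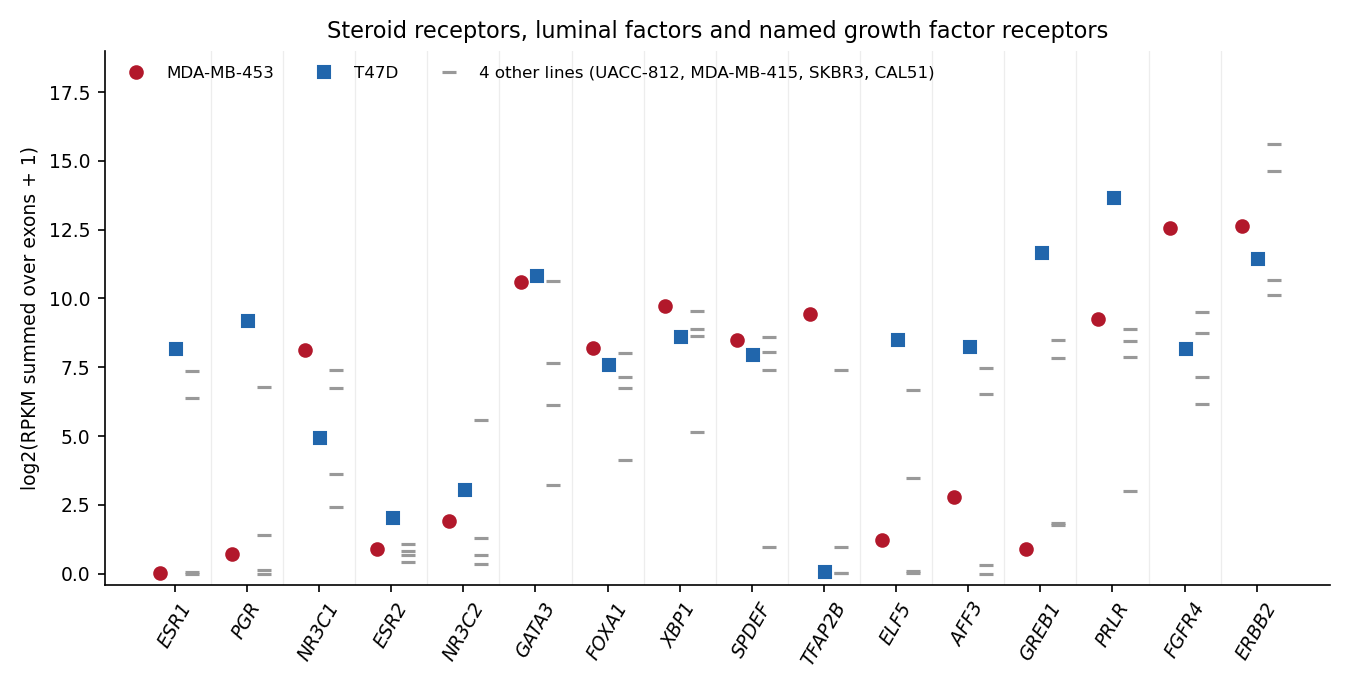
Levels of steroid receptors, luminal factors and growth factor receptors as log2(RPKM summed over exons + 1) in MDA-MB-453 (red circles), T47D (blue squares) and the 4 other lines (grey dashes), 1 library each. ESR1 and PGR are near 0 in MDA-MB-453 and high in T47D, NR3C1 is highest in MDA-MB-453, and GATA3, FOXA1, XBP1 and SPDEF are close together in the pair.

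Genes known to be induced by estrogen were lower in MDA-MB-453, as was ESR1. Of 52 measured, 23 were at least 4-fold lower in MDA-MB-453 against a background of 8.87%, and 2 were higher against 4.04%. In all, 44 were below 0, and the median difference was -1.62. GREB1, a coactivator of the estrogen receptor, had 0.854 RPKM in MDA-MB-453 and 3185 RPKM in T47D, a difference of -10.75. CXCL12, the ligand of the chemokine receptor CXCR4, had 0.0349 RPKM in MDA-MB-453 and 1235 RPKM in T47D. AGR3, a secretory pathway protein, was listed at 0 in MDA-MB-453 and had 1039 RPKM in T47D. The secreted hormone gene STC2 had 24.7 RPKM in MDA-MB-453 and 2160 RPKM in T47D, and the IGF-binding protein gene IGFBP4 had 2.90 RPKM in MDA-MB-453 and 208 RPKM in T47D.

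Some well-known estrogen targets lay within 4-fold. TFF1, a secreted trefoil peptide, had 5.14 RPKM in MDA-MB-453 and 8.34 RPKM in T47D, against 2737 RPKM in UACC-812. MYC had 215 RPKM in MDA-MB-453 and 173 RPKM in T47D, and the carbonic anhydrase gene CA12 had 873 RPKM in MDA-MB-453 and 1055 RPKM in T47D. CCND1, the G1 cyclin D1, was higher in MDA-MB-453 with 601 RPKM there and 192 RPKM in T47D, a difference of 1.64. The 2 members at least 4-fold higher in MDA-MB-453 were the receptor tyrosine kinase gene RET, with 73.2 RPKM in MDA-MB-453 and 6.09 RPKM in T47D, and TSKU, a secreted leucine-rich protein, with 35.1 RPKM in MDA-MB-453 and 4.48 RPKM in T47D.

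**Figure D3:**
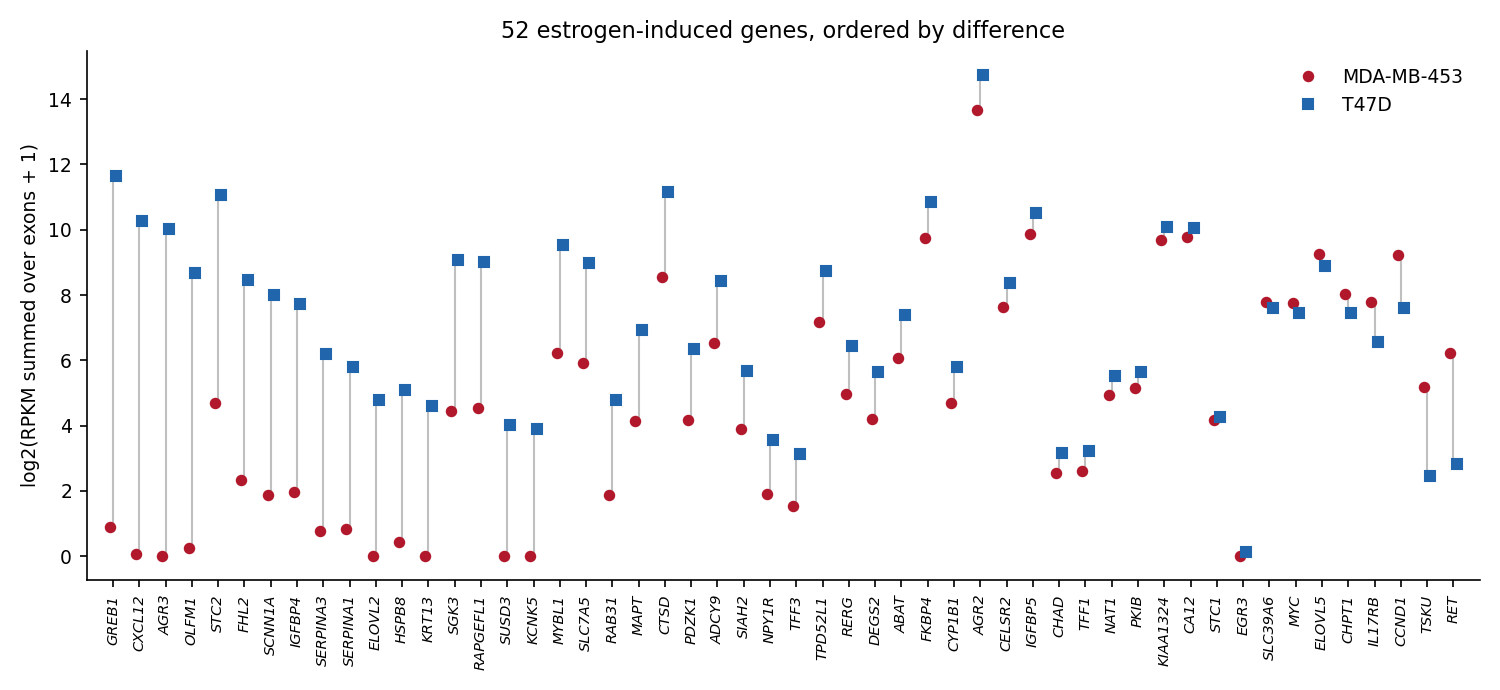
Levels of the 52 estrogen-induced genes measured, as log2(RPKM summed over exons + 1), in MDA-MB-453 (red circles) and T47D (blue squares), ordered by difference from the most lowered at the left. The 23 genes at least 4-fold lower in MDA-MB-453 lie at the left, and RET and TSKU stand at the far right with MDA-MB-453 higher.

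Over the 6 lines, the 5 genes whose pattern was most like that of ESR1 were SUSD3, MCOLN3, GRIK3, GREB1 and GPR77, with Pearson r of log2 values from 0.980 to 0.987 among 3593 genes with a range of at least 4. The r is a description over 6 libraries. MCOLN3, a cation channel of endosomes, had 0.0362 RPKM in MDA-MB-453 and 179 RPKM in T47D. SUSD3, a membrane protein, was listed at 0 in MDA-MB-453 and had 15.3 RPKM in T47D.

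The promoters of these genes were read for the letters of the estrogen response element, to show what lies next to the starts of the genes that differ most. Sequences are from RefSeq (build GRCh38.p14), the 250 bases before the start of each gene, and both strands were searched. The full estrogen response element, a palindrome with a spacer of any bases, was in 12 of 27305 promoters (0.0439%), in 0 of 35 estrogen-induced genes with a promoter and in 0 of 1058 genes at least 4-fold lower in MDA-MB-453. The shorter AGGTCA was in 4 of the 35 estrogen-induced genes (11.4%) and in 8.79% of the 1058 lower genes, against 9.15% of the measured genes with a promoter and 12.1% of all promoters. Of the 35, 4 of 17 genes at least 4-fold lower in MDA-MB-453, 0 of 2 higher and 0 of 16 within 4-fold held it. A link between the motif and direction was not tested. The matches of the 4 carriers are shown with the motif, on either strand, in capitals and up to 20 bases on each side.
CXCL12, chr10:44385281-44385326, minus strand: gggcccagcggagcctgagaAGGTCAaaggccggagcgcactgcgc
AGR3, chr7:16882183-16882228, minus strand: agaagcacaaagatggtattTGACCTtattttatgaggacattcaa
AGR3, chr7:16882013-16882058, minus strand: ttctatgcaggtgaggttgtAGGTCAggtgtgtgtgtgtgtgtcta
SERPINA3, chr14:94612176-94612221, plus strand: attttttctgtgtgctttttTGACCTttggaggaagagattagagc
PDZK1, chr1:145707444-145707489, minus strand: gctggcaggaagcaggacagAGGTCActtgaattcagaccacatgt
A match is a string of letters and not a bound site, and estrogen response elements also lie outside this window.

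Genes known to be induced by androgen did not move together. Of 43 measured, 9 were at least 4-fold higher in MDA-MB-453, against a background of 4.04%, and 6 lower, against 8.87%. The median was 0.22. IQGAP2, a scaffold protein, had 591 RPKM in MDA-MB-453 and 7.26 RPKM in T47D. AZGP1, a secreted zinc-binding glycoprotein of apocrine and prostate epithelium, had 1033 RPKM in MDA-MB-453 and 45.7 RPKM in T47D. The elongation factors ELL2 and EAF2 had 133 and 85.3 RPKM in MDA-MB-453 and 18.5 and 8.68 RPKM in T47D. PIP, prolactin-induced protein, had 18.4 RPKM in MDA-MB-453 and 911 RPKM in T47D. INPP4B, a phosphoinositide phosphatase, had 13.3 RPKM in MDA-MB-453 and 451 RPKM in T47D. FKBP5, a chaperone induced by several steroid hormones, had 482 RPKM in MDA-MB-453 and 785 RPKM in T47D, the highest levels of the 6 lines.

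The 23 progesterone-induced genes measured had 2 members at least 4-fold higher in MDA-MB-453, against a background of 4.04%, and 4 lower, against 8.87%. The 2 higher were TSC22D3 (GILZ) and the metallothionein MT2A. TSC22D3 had 255 RPKM in MDA-MB-453 and 22.3 RPKM in T47D, and MT2A had 348 RPKM in MDA-MB-453 and 37.7 RPKM in T47D. Both are also induced by glucocorticoids, but a link to the glucocorticoid receptor was not tested. The 4 lower were ELF5, S100P, STAT5A and BCL6. BCL6, a repressor, was at -2.05 and lay within 4-fold once the median was removed.

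Apocrine and secretory genes lay apart in both directions. Of 40 measured, 4 were at least 4-fold higher in MDA-MB-453, against a background of 4.04%, and 12 lower, against 8.87%. The median was 0.00, with 15 above 0, 19 below 0 and 6 listed at 0 in both lines. CLCA2, a regulator of chloride channels, had 6153 RPKM in MDA-MB-453 and 2.91 RPKM in T47D, a difference of 10.62. MUC5B, a gel-forming mucin, had 54.3 RPKM in MDA-MB-453 and 4.90 RPKM in T47D. SLPI, a secreted protease inhibitor, had 20.6 RPKM in MDA-MB-453 and was listed at 0 in T47D. MUC1, the membrane mucin of luminal cells, had 1.28 RPKM in MDA-MB-453 and 1625 RPKM in T47D, and it ran from 12.9 RPKM in SKBR3 to 3265 RPKM in MDA-MB-415 over the other lines, so MDA-MB-453 was the lowest. APOD, a lipocalin of apocrine secretion, was listed at 0 in MDA-MB-453 and had 204 RPKM in T47D. KYNU, an enzyme of tryptophan breakdown, had 114 RPKM in MDA-MB-453 and 898 RPKM in T47D.

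The prolactin axis was lower in MDA-MB-453. Of 12 genes measured, 5 were at least 4-fold lower, against a background of 8.87%, and 1 higher, against 4.04%. PRLR, the prolactin receptor, had 610 RPKM in MDA-MB-453 and 12847 RPKM in T47D, a difference of -4.39, and T47D stood far above the other lines, whose highest value was 478 RPKM in SKBR3. STAT5A and STAT5B, which carry the signal of the prolactin receptor to the nucleus, had 4.82 and 33.4 RPKM in MDA-MB-453 and 74.5 and 249 RPKM in T47D. ELF5 and PIP, both named above, are the other 2 lower members. SOCS2, a feedback inhibitor of the pathway, was higher in MDA-MB-453, with 13.2 RPKM there and 0.579 RPKM in T47D.

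The lines had different fibroblast growth factor receptors. FGFR4, a fibroblast growth factor receptor, had 6084 RPKM in MDA-MB-453 and 282 RPKM in T47D, a difference of 4.42, and the next highest line was UACC-812 with 729 RPKM. FGFR3 had 5.19 RPKM in MDA-MB-453 and 212 RPKM in T47D, and FGFR2 had 81.0 RPKM in MDA-MB-453 and 623 RPKM in T47D. FGFR1 had 120 RPKM in MDA-MB-453 and 149 RPKM in T47D. Of 21 genes of the pathway measured, 7 were at least 4-fold higher in MDA-MB-453, against a background of 4.04%, and 2 lower, against 8.87%. The 2 lower were FGFR3 and FGFR2.

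Targets and inhibitors of the pathway were among the 7. DUSP6, the ERK phosphatase, had 119 RPKM in MDA-MB-453 and 2.23 RPKM in T47D. SPRED1 and SPRED2, inhibitors of the RAS to RAF step, had 459 and 263 RPKM in MDA-MB-453 and 12.9 and 34.4 RPKM in T47D. ETV5, an ETS factor, had 23.8 RPKM in MDA-MB-453 and 1.70 RPKM in T47D. CAL51 stood above MDA-MB-453 for DUSP6, at 163 RPKM, and for ETV5, at 599 RPKM. For SPRED1, MDA-MB-453 was the highest of the 6 lines. Among 25 MAPK pathway genes, DUSP6 alone was 4-fold apart, against 12.9% of all genes.

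The list of ERBB receptors, ligands and feedback genes had 4 of 23 members at least 4-fold higher in MDA-MB-453 and 6 lower. The background was 4.04% higher and 8.87% lower. In the list, 10 were above 0 and 11 below 0, with a median of 0.00. ERBB2 (HER2) had 6356 RPKM in MDA-MB-453 and 2745 RPKM in T47D, a difference of 1.21, against 25464 RPKM in SKBR3 and 49826 RPKM in UACC-812. GRB7, its neighbour on chromosome 17, had 259 RPKM in MDA-MB-453 and 62.9 RPKM in T47D. ERBB3, the kinase-impaired partner, had 2878 RPKM in MDA-MB-453 and 5430 RPKM in T47D. EGFR had 16.2 RPKM in MDA-MB-453 and 70.9 RPKM in T47D, and ERBB4 had 7.13 RPKM in MDA-MB-453 and 151 RPKM in T47D. The ligand genes EGF, TGFA, HBEGF and NRG4 were lower in MDA-MB-453, with 6.50, 0.0493, 0.348 and 0 RPKM there and 121, 11.7, 10.1 and 3.49 RPKM in T47D. Higher in MDA-MB-453, beside GRB7, were the ligand gene NRG3, with 20.8 RPKM there and 2.69 RPKM in T47D, and the feedback inhibitors SPRY1 and SPRY4, with 40.8 and 20.4 RPKM in MDA-MB-453 and 3.91 and 0.00724 RPKM in T47D. SPRY4 had the widest difference of the list, 4.41, while SPRY2 had 2.95 RPKM in MDA-MB-453 and 4.35 RPKM in T47D.

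Of 35 PI3K pathway genes, 5 were at least 4-fold higher in MDA-MB-453, against a background of 4.04%, and 2 lower, against 8.87%. The 2 lower were INPP4B and the kinase SGK3. The median absolute difference of the list was 0.71, against 0.64 over all genes. The regulatory subunits PIK3R2 and PIK3R3 had 959 and 847 RPKM in MDA-MB-453 and 217 and 201 RPKM in T47D. In the insulin axis, IGFBP3 had 192 RPKM in MDA-MB-453 and 0.0431 RPKM in T47D, the reverse of IGFBP4. GAS6, the ligand of the TAM receptors, had 0.0266 RPKM in MDA-MB-453 and 321 RPKM in T47D.

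Cadherins and catenins had members far apart in both directions. CDH1, E-cadherin of the adherens junction, had 205 RPKM in MDA-MB-453 and 3978 RPKM in T47D, a difference of -4.27, and only SKBR3 at 0.823 RPKM and CAL51 at 107 RPKM were lower. DSP (desmoplakin) and JUP (plakoglobin), which anchor keratins at desmosomes, had 200 and 4301 RPKM in MDA-MB-453 and 3904 and 21070 RPKM in T47D. CTNND1, the p120 catenin, had 2564 RPKM in MDA-MB-453 and 4560 RPKM in T47D. Higher in MDA-MB-453 were CTNND2 (delta catenin), with 230 RPKM there and listed at 0 in T47D, the giant cadherin FAT1, with 672 RPKM in MDA-MB-453 and 2.74 RPKM in T47D, and CDH2 (N-cadherin), with 19.6 RPKM in MDA-MB-453 and 0.306 RPKM in T47D. FAT1 was at least 575 RPKM in all 4 other lines, so T47D was the line apart. In all, 4 of 25 cadherins and catenins were at least 4-fold higher, against a background of 4.04%, and 7 lower, against 8.87%. Of the 25, 12 were above 0 and 13 below 0, with a median of -0.25. Against the same shares, the tight junction genes had 0 of 29 higher and 4 lower. Among the 4 was CLDN1, with 0.108 RPKM in MDA-MB-453 and 163 RPKM in T47D.

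Keratins are the intermediate filaments of epithelium. Of 30 measured, 0 were at least 4-fold higher in MDA-MB-453, against a background of 4.04%, and 9 lower, against 8.87%. The median was -0.88. KRT8 and KRT18, the luminal pair, had 3962 and 4050 RPKM in MDA-MB-453 and 35859 and 21485 RPKM in T47D. KRT19 had 3824 RPKM in MDA-MB-453 and 17305 RPKM in T47D. MDA-MB-453 was the lowest of the 6 lines for KRT8. KRT23 had 8.92 RPKM in MDA-MB-453 and 455 RPKM in T47D, and KRT15 had 8.23 RPKM in MDA-MB-453 and 321 RPKM in T47D. KRT7 ran the other way within 4-fold, with 2009 RPKM in MDA-MB-453 and 866 RPKM in T47D. Of 22 basal and myoepithelial genes, 2 were at least 4-fold higher, TP63 and ITGA6, and 9 lower, led by the laminin LAMA3, which was listed at 0 in MDA-MB-453 and had 512 RPKM in T47D.

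Mesenchymal and matrix genes held some of the widest gaps. TNC, the matrix glycoprotein tenascin C, had 7346 RPKM in MDA-MB-453 and 4.47 RPKM in T47D, a difference of 10.39, and MDA-MB-415 was next with 482 RPKM. CD44, a hyaluronan receptor, had 0.460 RPKM in MDA-MB-453 and 203 RPKM in T47D. FBN1 (fibrillin) had 104 RPKM in MDA-MB-453 and was listed at 0 in T47D. COL6A1 and COL12A1 had 4.45 and 156 RPKM in MDA-MB-453 and 191 and 3635 RPKM in T47D. Of 28 mesenchymal genes, 3 were at least 4-fold higher, against a background of 4.04%, and 6 lower, against 8.87%. Their median was -0.18.

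**Figure D4:**
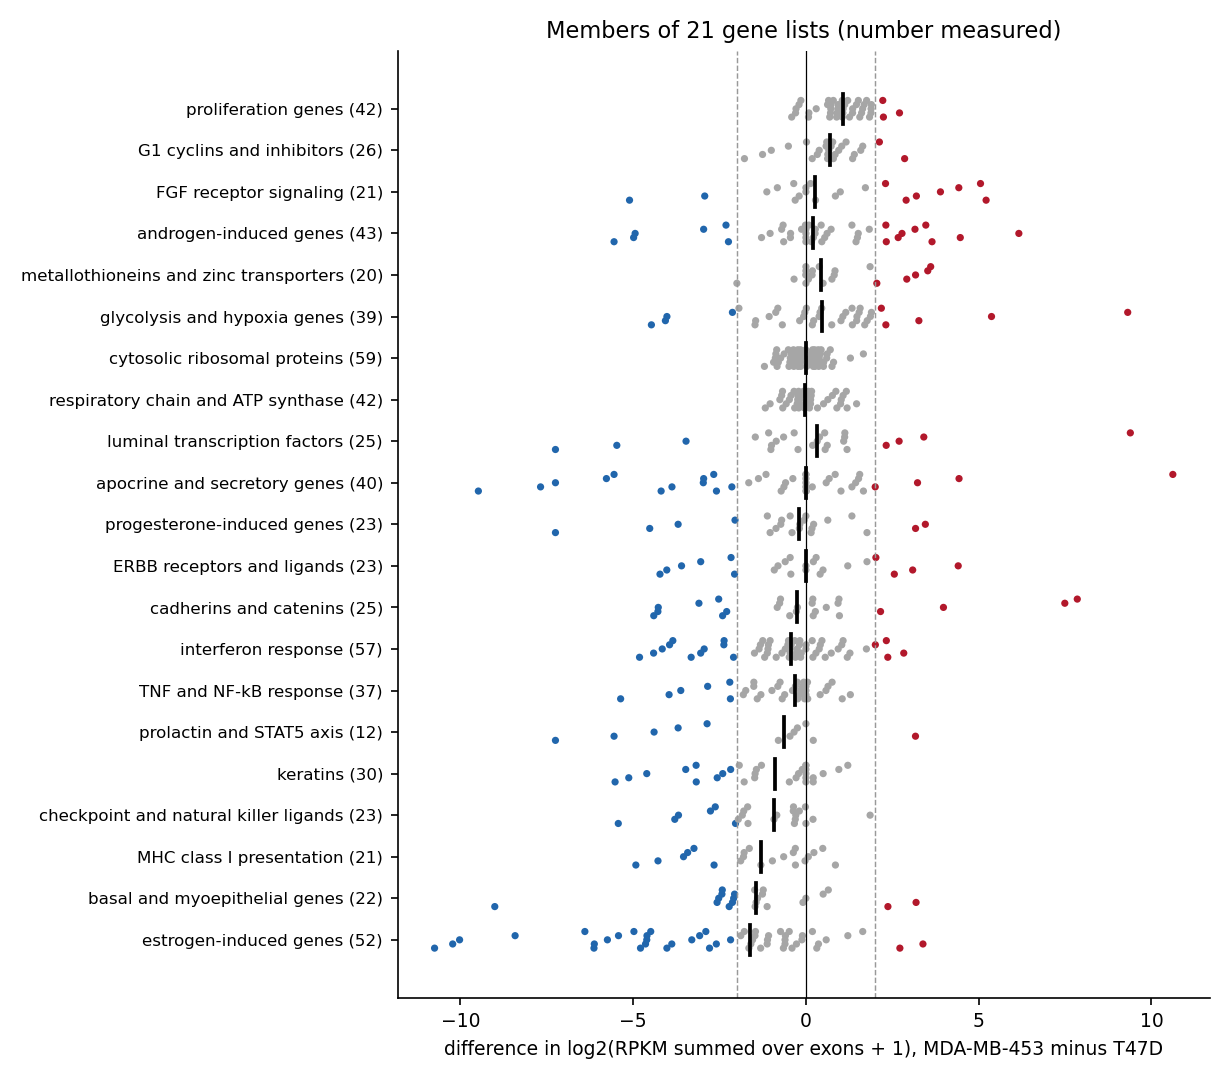
Difference in log2(RPKM summed over exons + 1), MDA-MB-453 minus T47D, for every measured member of 21 gene lists (points; red at least 4-fold higher, blue at least 4-fold lower in MDA-MB-453), with the list median as a black bar and dashed lines at 4-fold. Proliferation genes lie mostly right of 0 with a median of 1.06, estrogen-induced genes mostly left with a median of -1.62, and ribosomal and respiratory genes stay between the dashed lines.

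MHC class I genes, whose products show peptides to T cells, were lower in MDA-MB-453 in part. Of 21 measured, 0 were at least 4-fold higher, against a background of 4.04%, and 6 lower, against 8.87%. In all, 17 were below 0, and the median was -1.30. HLA-B had 1181 RPKM in MDA-MB-453 and 22970 RPKM in T47D, HLA-C had 1388 RPKM in MDA-MB-453 and 16172 RPKM in T47D, and HLA-F had 2.51 RPKM in MDA-MB-453 and 105 RPKM in T47D. These genes are alike in sequence and vary between people, so their values are uncertain. B2M, the shared light chain, had 1346 RPKM in MDA-MB-453 and 1282 RPKM in T47D. The transactivator NLRC5 had 5.98 RPKM in MDA-MB-453 and 73.8 RPKM in T47D, the immunoproteasome subunit PSMB8 had 10.3 RPKM in MDA-MB-453 and 106 RPKM in T47D, and the peptide transporter subunit TAP1 had 27.3 RPKM in MDA-MB-453 and 178 RPKM in T47D.

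Interferon response genes were split. Of 57 measured, 4 were at least 4-fold higher in MDA-MB-453, against a background of 4.04%, and 11 lower, against 8.87%. The median was -0.43. MX1, an antiviral GTPase, had 2.49 RPKM in MDA-MB-453 and 97.2 RPKM in T47D, and OAS2, which makes an activator of RNA decay, had 0.153 RPKM in MDA-MB-453 and 19.6 RPKM in T47D. The secreted glycoprotein LGALS3BP had 2.04 RPKM in MDA-MB-453 and 63.6 RPKM in T47D, and the ubiquitin-like ligase HERC5 had 8.45 RPKM in MDA-MB-453 and 48.0 RPKM in T47D. Higher in MDA-MB-453 were the regulator IRF7, with 109 RPKM there and 14.5 RPKM in T47D, the ubiquitin-like protein ISG15, with 46.4 RPKM in MDA-MB-453 and 8.16 RPKM in T47D, its protease USP18, with 665 RPKM in MDA-MB-453 and 165 RPKM in T47D, and GBP2, with 33.0 RPKM in MDA-MB-453 and 5.78 RPKM in T47D. The highest of the 6 lines for MX1, OAS2, LGALS3BP, HERC5, ISG15 and GBP2 was MDA-MB-415 or SKBR3 in each case.

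The counts of 3 other immune lists stand against 4.04% of all genes at least 4-fold higher in MDA-MB-453 and 8.87% lower. In lists this short, 0 higher is near that share. Checkpoint and natural killer ligands had 0 of 23 at least 4-fold higher and 6 lower, 5 with the median removed. CD276 (B7-H3) had 3.54 RPKM in MDA-MB-453 and 195 RPKM in T47D, and MICB, a ligand of the receptor NKG2D, had 9.28 RPKM in MDA-MB-453 and 142 RPKM in T47D. The TNF and NF-kB response had 0 of 37 higher and 6 lower, among them TNFAIP3 (A20), with 0.0646 RPKM in MDA-MB-453 and 12.1 RPKM in T47D. The death receptor pathway had 0 of 26 higher and 4 lower, led by TNFRSF10C, a decoy receptor, with 0.0370 RPKM in MDA-MB-453 and 33.8 RPKM in T47D, and FAS, with 0.754 RPKM in MDA-MB-453 and 45.2 RPKM in T47D.

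The promoters of the antigen presentation and interferon genes were read in the same way for an interferon motif. A link between the motif and direction was not tested. The core of the interferon-stimulated response element, searched on both strands, was in 3.07% of all 27305 promoters and in 25 of 43 interferon response genes with a promoter (58.1%). Of the interferon genes, 2 of 6 genes at least 4-fold lower in MDA-MB-453, 1 of 1 higher and 22 of 36 within 4-fold held it. Of the MHC class I list, 2 of 5 lower genes and 5 of 12 within 4-fold held it. Shown are carriers from each class, with the motif in capitals, overlapping matches merged, from RefSeq GRCh38.p14. TAP1, HLA-F, LGALS3BP and HERC5 were lower in MDA-MB-453, B2M was level and ISG15 was higher.
TAP1, chr6:32853803-32853858, minus strand: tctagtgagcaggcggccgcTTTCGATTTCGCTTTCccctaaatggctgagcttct
HLA-F, chr6:29723258-29723307, plus strand: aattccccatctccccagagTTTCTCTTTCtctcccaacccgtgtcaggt
LGALS3BP, chr17:78979952-78980001, minus strand: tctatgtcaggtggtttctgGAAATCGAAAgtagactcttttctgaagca
HERC5, chr4:88457025-88457074, plus strand: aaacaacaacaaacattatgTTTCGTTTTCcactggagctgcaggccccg
B2M, chr15:44711353-44711408, plus strand: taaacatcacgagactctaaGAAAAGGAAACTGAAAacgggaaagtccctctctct
ISG15, chr1:1013364-1013419, plus strand: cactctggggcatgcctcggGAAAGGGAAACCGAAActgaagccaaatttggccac
The same letters thus stood before genes of all 3 classes.

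Cell cycle genes were higher in MDA-MB-453 by small amounts. Of 42 proliferation genes measured, 37 were above 0 and the median was 1.06. Yet 3 of the 42 were at least 4-fold higher, against a background of 4.04%, and 0 lower, against 8.87%. CDC45, which unwinds DNA at replication forks, had 2017 RPKM in MDA-MB-453 and 308 RPKM in T47D. MAD2L1, a spindle checkpoint protein, had 190 RPKM in MDA-MB-453 and 39.3 RPKM in T47D, and MKI67, the proliferation antigen, had 520 RPKM in MDA-MB-453 and 140 RPKM in T47D. TOP2A, a topoisomerase, had 2285 RPKM in MDA-MB-453 and 2786 RPKM in T47D, so the lean was not shared by every member. Of 26 G1 genes, 22 were above 0 with a median of 0.70, and 2 were at least 4-fold higher, the inhibitor CDKN1B (p27), with 214 RPKM in MDA-MB-453 and 48.3 RPKM in T47D, and FBXW7, with 445 RPKM in MDA-MB-453 and 60.6 RPKM in T47D. Repair genes had a median of 0.62, with BLM and EXO1 the 2 of 32 at least 4-fold higher and 0 lower.

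Housekeeping machinery was level. The 59 cytosolic ribosomal protein genes had a median of 0.00 and the 42 respiratory chain and ATP synthase genes a median of -0.03, with no member of either list 4-fold apart. Of the ribosomal genes, 56 lay within 2-fold.

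Glycolysis and hypoxia genes leaned higher in MDA-MB-453 than in T47D, with 25 of 39 above 0 and a median of 0.46. In this list 5 were at least 4-fold higher, against a background of 4.04%, and 4 lower, against 8.87%. The list summed to 70581 RPKM in MDA-MB-453 and 40916 RPKM in T47D, against 71006 to 101004 RPKM in the other lines. By this sum T47D was the lowest line and MDA-MB-453 the next lowest. EGLN3, an oxygen-sensing prolyl hydroxylase, had 3278 RPKM in MDA-MB-453 and 4.16 RPKM in T47D, a difference of 9.31. CA9, the carbonic anhydrase used as a hypoxia marker, had 40.4 RPKM in MDA-MB-453 and was listed at 0 in T47D. ENO2, an enolase, had 724 RPKM in MDA-MB-453 and 74.2 RPKM in T47D, and LDHA, lactate dehydrogenase, had 6978 RPKM in MDA-MB-453 and 2040 RPKM in T47D. ADM, the hypoxia-induced peptide adrenomedullin, was the most lowered member, with 0.338 RPKM in MDA-MB-453 and 28.7 RPKM in T47D, a difference of -4.47. ALDOC, an aldolase, was lower, with 27.1 RPKM in MDA-MB-453 and 456 RPKM in T47D, and so was FBP1, which runs gluconeogenesis, with 13.2 RPKM in MDA-MB-453 and 237 RPKM in T47D. SLC2A1, the glucose transporter GLUT1, had 150 RPKM in MDA-MB-453 and 132 RPKM in T47D.

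The hypoxia response element, searched as ACGTGC on both strands, was in 5.85% of all promoters and in 9 of 34 promoters of this list (26.5%). Of those, 2 of 4 genes higher in MDA-MB-453, 1 of 4 lower and 6 of 26 within 4-fold held it. CA9 and ENO2, which were higher, and ALDOC, which was lower, are shown with the motif in capitals.
CA9, chr9:35673889-35673927, plus strand: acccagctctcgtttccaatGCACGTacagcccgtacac
ENO2, chr12:6914442-6914487, plus strand: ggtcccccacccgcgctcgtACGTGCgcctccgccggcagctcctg
ALDOC, chr17:28577111-28577145, minus strand: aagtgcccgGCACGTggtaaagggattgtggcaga
The motif stood before genes of both directions.

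Some metabolic genes were far apart. GSTM3, a glutathione transferase, had 2.16 RPKM in MDA-MB-453 and 3439 RPKM in T47D, and was at least 1131 RPKM in all 4 other lines. GSTT1, which is deleted in part of the population, had 79.6 RPKM in MDA-MB-453 and 0.967 RPKM in T47D. PSAT1, an enzyme of serine synthesis, had 0.0794 RPKM in MDA-MB-453 and 202 RPKM in T47D, and ALDH1L2 of mitochondrial folate metabolism had 0.771 RPKM in MDA-MB-453 and 168 RPKM in T47D. CBS, which makes cystathionine, had 1097 RPKM in MDA-MB-453 and 103 RPKM in T47D. The metallothionein and zinc transporter list had 5 of 20 at least 4-fold higher and 0 lower, all 5 of them metallothioneins, whose near-identical copies make single values uncertain. Of 26 cholesterol synthesis genes, 2 were at least 4-fold higher, against a background of 4.04%, and 1 lower, against 8.87%. The median of these genes was 0.40. The 2 higher were INSIG1 and INSIG2, which restrain the pathway, and the lower was the sterol carrier STARD4, with 32.2 RPKM in MDA-MB-453 and 162 RPKM in T47D. TP53I3, a p53 target, had 37.0 RPKM in MDA-MB-453 and 1686 RPKM in T47D.

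Some of the 20 genes furthest apart in each direction, such as GREB1, CXCL12, AGR3, CLCA2 and TNC, are described above with their lists. Among the others at the top, ANKRD30A, the breast differentiation antigen NY-BR-1, had 7309 RPKM in MDA-MB-453 and was listed at 0 in T47D, with 92.4 RPKM in MDA-MB-415 as the next highest. SLC1A7, a glutamate transporter, had 886 RPKM in MDA-MB-453 and was listed at 0 in T47D, and no other line exceeded 1.41 RPKM. SMC1B, a cohesin subunit of meiosis, had 741 RPKM in MDA-MB-453 and 0.676 RPKM in T47D. CDCA7, a chromatin factor of dividing cells, had 720 RPKM in MDA-MB-453 and 0.101 RPKM in T47D. RPS6KA3, the kinase RSK2, had 321 RPKM in MDA-MB-453 and 0.391 RPKM in T47D, and was at least 248 RPKM in the 4 others, so T47D was the line apart.

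Among the others at the bottom were GAGE genes, cancer-testis antigens that are near-identical copies in a cluster on the X chromosome. The 12 measured were all listed at 0 in MDA-MB-453 and at 151 to 2333 RPKM in T47D, so that how reads were shared among the copies is uncertain. ODZ3, a teneurin, was listed at 0 in MDA-MB-453 and had 1890 RPKM in T47D, against 16 RPKM at most in the other lines. EFEMP1, a fibulin, was listed at 0 in MDA-MB-453 and had 1245 RPKM in T47D. PPP4R4, a phosphatase subunit, was listed at 0 in MDA-MB-453 and had 633 RPKM in T47D, with no other line above 1.60 RPKM.

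Presence in 1 line of the pair was uneven. There were 133 genes at 10 RPKM or more in MDA-MB-453 and under 1 in T47D, of which 25 reached 10 in none of the 4 other lines. The reverse held for 401 genes, of which 79 reached 10 in none of the others. Of the 663 genes at least 4-fold higher in MDA-MB-453, MDA-MB-453 alone lay outside the range of the 4 others on that side for 235, T47D alone for 162, both for 71 and neither for 195. Of the 1457 lower, MDA-MB-453 alone lay outside for 447, T47D alone for 429, both for 144 and neither for 437.

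The differences were not spread evenly along the genome. Gene order came from RefSeq, a later build than the authors' hg19, for 12557 genes reaching 5 RPKM in at least 1 line of the pair. Chromosome medians ran from -0.66 on chromosome 17 and -0.54 on chromosome 11 to 0.58 on chromosome 13 and 0.73 on chromosome 22. Over windows of 15 neighbours, the central 90% of window medians lay between -1.06 and 0.93 after the median difference was removed.

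**Figure D5:**
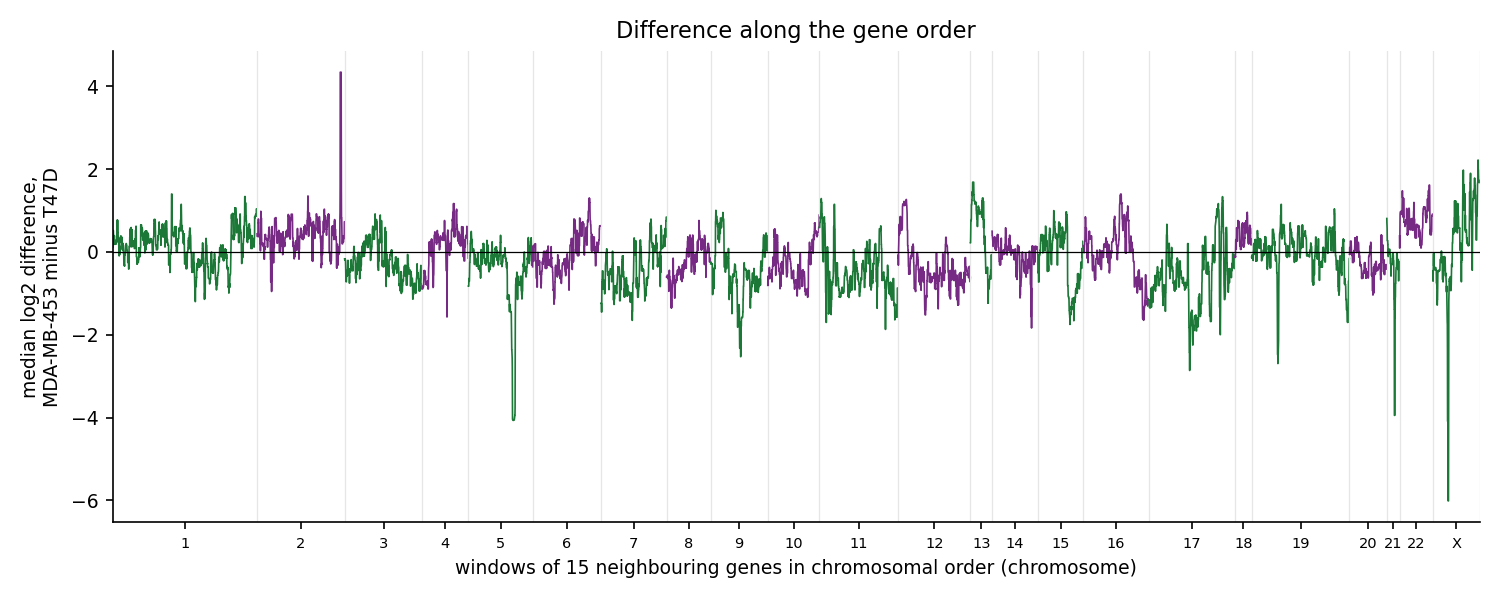
Median difference in log2(RPKM summed over exons + 1), MDA-MB-453 minus T47D, in sliding windows of 15 neighbouring genes, in chromosomal order from chromosome 1 at the left to X at the right (colors alternate by chromosome). The deepest dips are the GAGE cluster on X, the protocadherins on chromosome 5 and BRWD1 to C2CD2 on chromosome 21, and the peak on chromosome 2 is UGT1A.

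Some windows were gene clusters with shared exons, where 1 measurement stands for many genes. All 22 PCDHG protocadherins were lower in MDA-MB-453, at 2.64 to 4.51 RPKM there and 59.3 to 73.0 RPKM in T47D, and all 9 UGT1A genes, which make glucuronidating enzymes, were at 19.2 to 21.9 RPKM in MDA-MB-453 and listed at 0 in T47D. Others held distinct genes. On chromosome 21, the 15 genes from BRWD1 to C2CD2 had a median of 8.29 RPKM in MDA-MB-453 and 72.6 RPKM in T47D, and 13 were lower in MDA-MB-453. MX1 and MX2 of the interferon list lie there, between BACE2, with 9.86 RPKM in MDA-MB-453 and 282 RPKM in T47D, and TMPRSS2, an androgen-induced gene with 66.5 RPKM in MDA-MB-453 and 72.6 RPKM in T47D.

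On chromosome 17, all 15 genes from CASC3 to KRT15 were lower in MDA-MB-453. They include RARA and IGFBP4 and the keratins KRT23, KRT13 and KRT15, and also genes in none of the lists, such as TNS4, a focal adhesion protein, with 0.310 RPKM in MDA-MB-453 and 67.8 RPKM in T47D. On chromosome 19, 14 of 15 zinc finger genes from ZNF823 to ZNF563 were lower in MDA-MB-453, among them ZNF441, with 0.0218 RPKM there and 42.1 RPKM in T47D.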

How the data were processed

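Total RNA was taken with Tri reagent, treated with DNase and made into libraries with the PrepX mRNA kit on the Apollo 324, per the labels' protocols, and the series' design text gives single-end reads. CASAVA 1.8, RSEM and the build hg19 are named, with no role or order, per the submitters' processing notes. The deposited values are read as RPKM summed by the authors over a gene's exons. The unit comes from the values. Multiplied by its exon length, the value of a low gene with 1 exon was a whole multiple (within 0.01) of the worth of 1 read for 36.6% of such genes in MDA-MB-453 and 37.1% in T47D, against 1.91% and 1.89% for other constants. Of low genes with 2 exons, 43.1% in MDA-MB-453 and 55.3% in T47D matched a sum over exons, and 0% matched the summed length. Exon lengths came from a later build than hg19. The aligner's settings, the annotation and the use of strand are not given in the sources used here, so genes with an antisense partner are uncertain.

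Of 16444 entries, 22 names turned into dates and 4 sharing a name were left out. Differences used Python 3.11.15, numpy 2.4.6, pandas 2.3.3 and matplotlib 3.10.9 on log2(RPKM + 1), as deposited and with the median difference removed, and the steps were checked on simulated data. The members and the 54 gene lists were chosen with earlier results of these data known. Named genes are 20 fixed ones, up to 6 of each list with the widest difference among those reaching 5 RPKM, the 20 extremes each way reaching 10 RPKM, the steroid receptors and the 5 most like ESR1. Other genes were named after their values were seen. RefSeq promoters (GRCh38.p14) matched 12481 genes. Alternatives covered pseudocounts, filters, scalings, thresholds and shared-exon families. Depth was recovered from the same constant, and an exact 0 may be no reads or no estimate, so it is given as listed at 0. Some of the genes this rule names are not reported here.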

Additional observations from a re-analysis of the deposited data

How the results depend on the processing

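Every difference rests on 1 library a line, so none has a biological error. No paired analysis was possible because each line has 1 library. Scaling the libraries by trimmed mean of M values, upper quartile or median of ratios moved the median of all genes by at most 0.06. The 970 genes listed at 0 in both lines keep a difference of 0 under any scaling. The median came to exactly 0 with trimmed mean and median of ratios, so it cannot show a larger shift. Genes at least 4-fold higher and lower numbered 756 and 1337 with trimmed mean, 668 and 1425 with upper quartile, and 701 and 1363 with median of ratios. Unscaled they numbered 663 and 1457. As deposited, the genes at least 4-fold higher and lower in MDA-MB-453 numbered 1016 and 2125 with a pseudocount of 0.1, 399 and 871 with a pseudocount of 5, and 419 and 771 among genes reaching 1 in both lines. With the median removed the numbers were 1073 and 2069, 419 and 851, and 462 and 718. A threshold of 1 log2 unit gave 2100 and 3437 as deposited and 2276 and 3221 with the median removed, and a threshold of 3 units gave 291 and 768, and 309 and 752. Leaving out GAGE, XAGE, PCDHG and UGT1A genes, chosen after seeing the data, left 654 higher and 1421 lower. The pair was in place 1 of the 15 among genes reaching 5 in any line and by Pearson correlation. Windows of 30 genes had extremes of -3.99 and 1.78, against -5.95 and 4.40. The steroid receptor median became 2.05 among genes reaching 1 in both lines. Of 54 list medians, 14 lay at least 0.5 from 0, and among these no other changed sign. Over all 54 lists, 31 values moved by 0.5 or more. Of 344 named genes, the 244 past 4-fold kept their sign under these alternatives. Sign was not followed for list medians nearer to 0 or for named genes within 4-fold. For the named genes, 51 values fell under and 10 came over 4-fold. Counts of genes present in 1 line have no value under another pseudocount or among genes reaching 1 in both lines. Genes near the worth of 3 reads are beyond this depth.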
